A study of Mus musculus with 30 samples.

Results

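The comparison described here sets the colon of mice killed 9 weeks after the start of AOM/DSS treatment against the colon of vehicle mice, with females and males pooled. Its members are the libraries whose titles name 9 weeks of AOM/DSS or vehicle, 10 of each, which are 20 of the 30 libraries of the series. Each group of 10 held 5 female and 5 male C57BL/6J wild-type mice, 5 to 10 weeks old at the start, with 1 library per mouse. Treated mice received a single intraperitoneal injection of azoxymethane (AOM, 10 mg per kg body weight), a carcinogen that alkylates DNA, and then 3 cycles of 2.5% dextran sodium sulfate (DSS) in the drinking water, a polymer that injures the colonic epithelium and causes colitis. Vehicle mice received saline, and their labels also give 9 weeks. AOM and DSS were always given together, so their shares in a difference cannot be told apart. RNA came from scrapes meant to hold the epithelial layer of the colon. The libraries that received 15 weeks of AOM/DSS enter 1 alternative fit only.

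Colitis after DSS is known as a state in which granulocytes and monocytes enter the mucosa along chemokine gradients and secrete interleukin-1 and TNF, while T and NK cells secrete interferon-gamma. Interferon-gamma induces GTPases that attack intracellular microbes, together with the machinery of antigen presentation, also in epithelial cells. The epithelium itself makes oxidants and antimicrobial proteins, and during repair it is known to switch on genes of the fetal gut. In tumours of this model, signalling by Wnt through beta-catenin is commonly active.

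Counts on genes ran from 9265804 to 30806392 per library, and the lowest belonged to female vehicle replicate 5, with all others at 20393766 or more. The epithelial markers Epcam and Cdh1 were high in every library, at 424 to 583 FPKM (median 519) in the vehicle libraries and 516 to 664 FPKM (median 616) in the AOM/DSS libraries for Epcam, so the scrapes held epithelium. Other cells were present too. Male vehicle replicate 1 stood apart by its muscle and connective tissue genes: Myh11, the myosin heavy chain of smooth muscle, was at 169.9 FPKM there and at most 4.95 FPKM in the other 19 libraries (FPKM, fragments per kilobase of transcript and 1000000 mapped). Female AOM/DSS replicate 5 lay among the vehicle libraries on the first principal component, which held 46.7% of the variance of the 500 most variable genes, at a score of -27.9 where the other 9 AOM/DSS libraries lay between 12.5 and 45.1. Both libraries and the shallow one were kept, and a list's count without all 3 is given where it differed by over 1.5 times. In bulk RNA, fewer cells of a type and less RNA per cell cannot be told apart. The labels give 1 mouse per library, so p-values measure the spread between mice.

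A total of 16072 genes were tested by edgeR's quasi-likelihood test with sex as an additive term. A gene was called a differentially expressed gene (DEG) at a Benjamini-Hochberg adjusted p under 0.05, a log2 fold change beyond 0.4 in either direction and a mean of at least 1 FPKM in either group. By these rules 1333 genes (8.29% of those tested) differed, 911 higher (5.67%) and 422 lower (2.63%) in AOM/DSS. The median log2 fold change of all tested genes was -0.01. Genes that rose did so by a median of 1.05 on the log2 scale, and 475 of them by more than 2-fold. Genes that fell did so by a median of -0.63, and 81 of them by more than 2-fold. In 1.11% of the genes tested the 10 AOM/DSS and the 10 vehicle libraries did not overlap on the scale of normalised log2 CPM (counts per 1000000 of the library), and 145 of these were DEGs, 132 higher and 13 lower. Leaving out the 3 libraries named above gave 1008 higher and 682 lower, and 834 of the 911 and 384 of the 422 were called again. Without female AOM/DSS replicate 5 alone, 659 genes were lower. Values written as a change are log2 fold changes with their standard errors, AOM/DSS over vehicle. The shares above are the background for the gene lists below, each described by how many of its tested members were DEGs and by its median log2 fold change. Listed genes low in every group were filtered out, while genes near 0 in vehicle could pass by their AOM/DSS counts. Medians of lists with such genes are therefore raised by the filter.

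**Figure D1:**
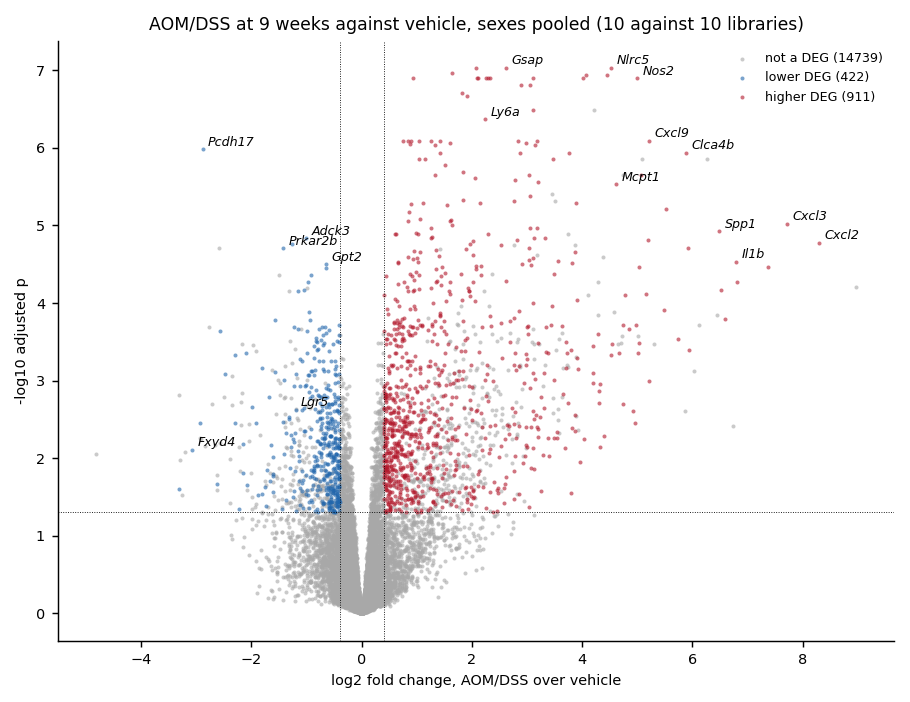
Each point is 1 of the 16072 genes tested, with the log2 fold change (AOM/DSS over vehicle) on the x axis and -log10 of the adjusted p on the y axis; red and blue points are DEGs, and grey points beyond the dotted thresholds had a mean under 1 FPKM in both groups. The 911 higher DEGs reach a log2 fold change of 8.30 (Cxcl2), while Fxyd4, at -3.07, is among the farthest of the 422 lower ones, and Pcdh17, at -2.88, has the smallest adjusted p of these.

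The 10 largest increases among DEGs without overlap between the groups were those of Cxcl3, Spp1, Clec4d, Clca4b, Cxcl9, Mcpt2, Ighv3-8, Nos2, Mcpt1 and Nlrc5, which are genes of granulocyte and lymphocyte recruitment, myeloid cells, mast cells, antibodies, nitric oxide synthesis and antigen presentation. Clca4b, a gene of the calcium-activated chloride channel regulator family that colonocytes can express, was at 0.803 to 5.99 FPKM (median 1.87) in the vehicle libraries and 7.51 to 289.6 FPKM (median 117.2) in the AOM/DSS libraries. Every AOM/DSS library lay above the highest vehicle library, and the log2 fold change was 5.89 ± 0.59 (SE, 10 against 10, adjusted p = 1.15e-06). Spp1, which encodes the secreted phosphoprotein osteopontin, was at 0 to 0.0738 FPKM (median 0) in the vehicle libraries and 0.0939 to 3.63 FPKM (median 0.944) in the AOM/DSS libraries and rose by 6.49 ± 0.78 (adjusted p = 1.19e-05).

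The 10 largest decreases without overlap were smaller: Pcdh17, Prkar2b, Plscr2, Adck3, Cpm, Gm10399, Gpam, Lyplal1, Gpt2 and Lpar1 ran from -2.88 to -0.49 on the log2 scale. Pcdh17, a protocadherin of cell adhesion, was at 0.599 to 2.59 FPKM (median 1.58) in the vehicle libraries and 0.0727 to 0.44 FPKM (median 0.209) in the AOM/DSS libraries, so that all 10 AOM/DSS libraries lay under the lowest vehicle library (log2 fold change -2.88 ± 0.29, adjusted p = 1.04e-06).

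By tested members, neutrophil genes had the highest median of all lists. Of 18 listed genes 12 passed the filter on low counts, 7 of them rose and none fell, and their median log2 fold change was 4.91. That median leaves out the 6 listed genes under the filter and includes genes near 0 in vehicle that could pass by their AOM/DSS counts, so its rank depends on the filter. S100a8 and S100a9, which form the calcium-binding protein calprotectin of neutrophils, were listed at 0 FPKM in most vehicle libraries. S100a8 was at 0 to 0.81 FPKM (median 0) in the vehicle libraries and 0 to 40.7 FPKM (median 8.0) in the AOM/DSS libraries, higher in 9 of 10 AOM/DSS libraries than in any vehicle library (log2 fold change 6.59 ± 1.01, adjusted p = 0.000161). S100a9 ran at 0 to 2.7 FPKM (median 0) in the vehicle libraries and 0 to 77.8 FPKM (median 13.1) in the AOM/DSS libraries (5.94 ± 1.01, 0.000406). The library at 0 for both genes among the treated mice was female AOM/DSS replicate 5. The lectin receptors Clec4e (log2 fold change 6.51 ± 0.92, adjusted p = 6.87e-05) and Clec4d (5.92 ± 0.75, 1.98e-05), and Csf3r (4.79 ± 0.69, 7.92e-05), the receptor of the granulocyte growth factor G-CSF, rose as well. Cxcr2, the receptor for neutrophil-attracting chemokines, was listed at 0 FPKM in all vehicle libraries and ran at 0 to 1.13 (median 0.29) FPKM under AOM/DSS, below the FPKM minimum for a DEG (adjusted p = 0.000268). Ly6g, listed as a surface protein of neutrophils, was abundant in both groups, at 9.02 to 151.9 FPKM (median 75.9) in the vehicle libraries and 6.64 to 117.3 FPKM (median 84) in the AOM/DSS libraries, with no difference passing the test (0.26 ± 0.39, adjusted p = 0.705). In the same vehicle libraries S100a8 and S100a9 had medians of 0 FPKM, so Ly6g did not follow these markers. Which cells its transcripts came from was not tested.

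Among 16 tested macrophage and monocyte genes 7 rose and none fell (median 1.25). Cd14, the lipopolysaccharide co-receptor, was at 7.53 to 23.9 FPKM (median 10.1) in the vehicle libraries and 11 to 48.1 FPKM (median 34.5) in the AOM/DSS libraries and rose by 1.43 ± 0.22 (adjusted p = 0.000146). Lyz2, the lysozyme of macrophages, was at 66.6 against 21.8 FPKM in the medians (log2 fold change 1.35 ± 0.41, adjusted p = 0.0261). Adgre1, which encodes the macrophage marker F4/80, and Csf1r, the receptor for macrophage colony-stimulating factor, did not pass, at 0.68 ± 0.46 (adjusted p = 0.34) and 1.06 ± 0.46 (adjusted p = 0.124). The count of 7 was sensitive to single libraries: it was 11 without male vehicle replicate 1, the highest vehicle library for this list, and 2 without female AOM/DSS replicate 4. It fell to 3 or 4 when any of female vehicle replicates 3, 4 and 5, male vehicle replicates 2 and 3, female AOM/DSS replicates 1 and 2, or male AOM/DSS replicates 1, 2 and 3 was left out, and was 12 without the 3 libraries that stood apart.

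Chemokines that attract these cells rose with them. Of the CXC chemokines tested, 8 of 11 rose and none fell, with a median of 2.8. Cxcl2 and Cxcl3, ligands of CXCR2 that lie near each other on chromosome 5 (chr5:90903871-90905938 and chr5:90786103-90789600, GRCm38), were almost absent from vehicle colon. Cxcl2 was at 0 to 0.0466 FPKM (median 0) in the vehicle libraries and 0.0416 to 39 FPKM (median 3.0) in the AOM/DSS libraries, with 9 of 10 AOM/DSS libraries above all vehicle libraries (log2 fold change 8.30 ± 1.03, adjusted p = 1.68e-05). Cxcl3 gave 2 counts in all 10 vehicle libraries together and 687 in the AOM/DSS libraries, a ratio of 334 in CPM with a 95% counting interval of 92.1 to 2764, and its groups did not overlap (adjusted p = 9.56e-06). Cxcl1, a further ligand of that receptor, was at 0 to 0.993 FPKM (median 0.057) in the vehicle libraries and 0.0224 to 4.76 FPKM (median 1.32) in the AOM/DSS libraries (3.23 ± 0.69, adjusted p = 0.00293), and Cxcl5 rose by 3.43 ± 0.54. The interferon-induced ligands of CXCR3 on T and NK cells rose too. Cxcl9 was at 0 to 0.567 FPKM (median 0.126) in the vehicle libraries and 1.65 to 8.65 FPKM (median 6.34) in the AOM/DSS libraries without overlap (log2 fold change 5.22 ± 0.50, adjusted p = 8.05e-07), and Cxcl10 at 6.65 against 0.59 FPKM in the medians (2.80 ± 0.51, 0.00074). Cxcl16 rose less (0.97 ± 0.16).

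Of 13 CC chemokines 6 rose and none fell (median 1.75). Ccl3 and Ccl4, which attract monocytes and lymphocytes, were at medians of 1.04 against 0 FPKM and 1.16 against 0 FPKM (log2 fold changes 5.75 ± 0.94 and 4.85 ± 0.77, adjusted p = 0.000291 and 0.000218). Ccl8 was at 0 to 2.33 FPKM (median 0.489) in the vehicle libraries and 0.812 to 8.55 FPKM (median 4.17) in the AOM/DSS libraries, above every vehicle library in 9 of 10 AOM/DSS libraries (3.11 ± 0.57, adjusted p = 0.000788). Ccl5 rose by 2.94 ± 0.56. Ccl2, the classical monocyte attractant, differed (log2 fold change 3.29 ± 0.63, adjusted p = 0.00116) but stayed under the FPKM minimum, at a median of 0.661 against 0.02 FPKM. Ccl20, which epithelial cells make and which attracts cells with CCR6, was called by a narrow margin (1.07 ± 0.37, adjusted p = 0.0496) and kept the call in 4 of 20 fits that left out 1 library.

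Among cytokine genes past the FPKM minimum, those of interleukin-1 had the largest changes. Of 24 listed cytokines 16 passed the filter, 6 rose and none fell, with a median of 2.14. Il1b, which encodes interleukin-1 beta, was at 0 to 0.681 FPKM (median 0.145) in the vehicle libraries and 0.203 to 128.8 FPKM (median 14.4) in the AOM/DSS libraries, and 9 of 10 AOM/DSS libraries exceeded every vehicle library (log2 fold change 6.79 ± 0.89, adjusted p = 2.96e-05). Il1a was listed at 0 in most vehicle libraries and at a median of 2.16 FPKM under AOM/DSS (6.82 ± 0.94, adjusted p = 5.31e-05). Tnf was at 0.324 to 1.37 FPKM (median 0.703) in the vehicle libraries and 2.46 to 14.2 FPKM (median 5.89) in the AOM/DSS libraries, without overlap (3.17 ± 0.31, adjusted p = 8.05e-07). The interleukin-1 receptor antagonist Il1rn rose by 0.84 ± 0.27 (adjusted p = 0.0338), a call kept in 9 of 20 fits without 1 library, and Tgfb1, which restrains inflammation, by 0.72 ± 0.21 (adjusted p = 0.0222). A group of cytokines came from next to nothing and stayed below the FPKM minimum. Il17a, the neutrophil-mobilising cytokine of T cells, had no count in any vehicle library and 136 counts in the AOM/DSS libraries, at least 44.1-fold higher with a floor of 3 counts over the vehicle group. Il6 had 1 count in the vehicle libraries and a ratio of 153.7 (95% counting interval 27.2 to 6107), and Ifng, which encodes interferon-gamma, had 2 counts against 290, a ratio of 141 (38.7 to 1170). Adjusted p-values of these 3 genes were 0.00384, 0.000194 and 0.000142.

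**Figure D2:**
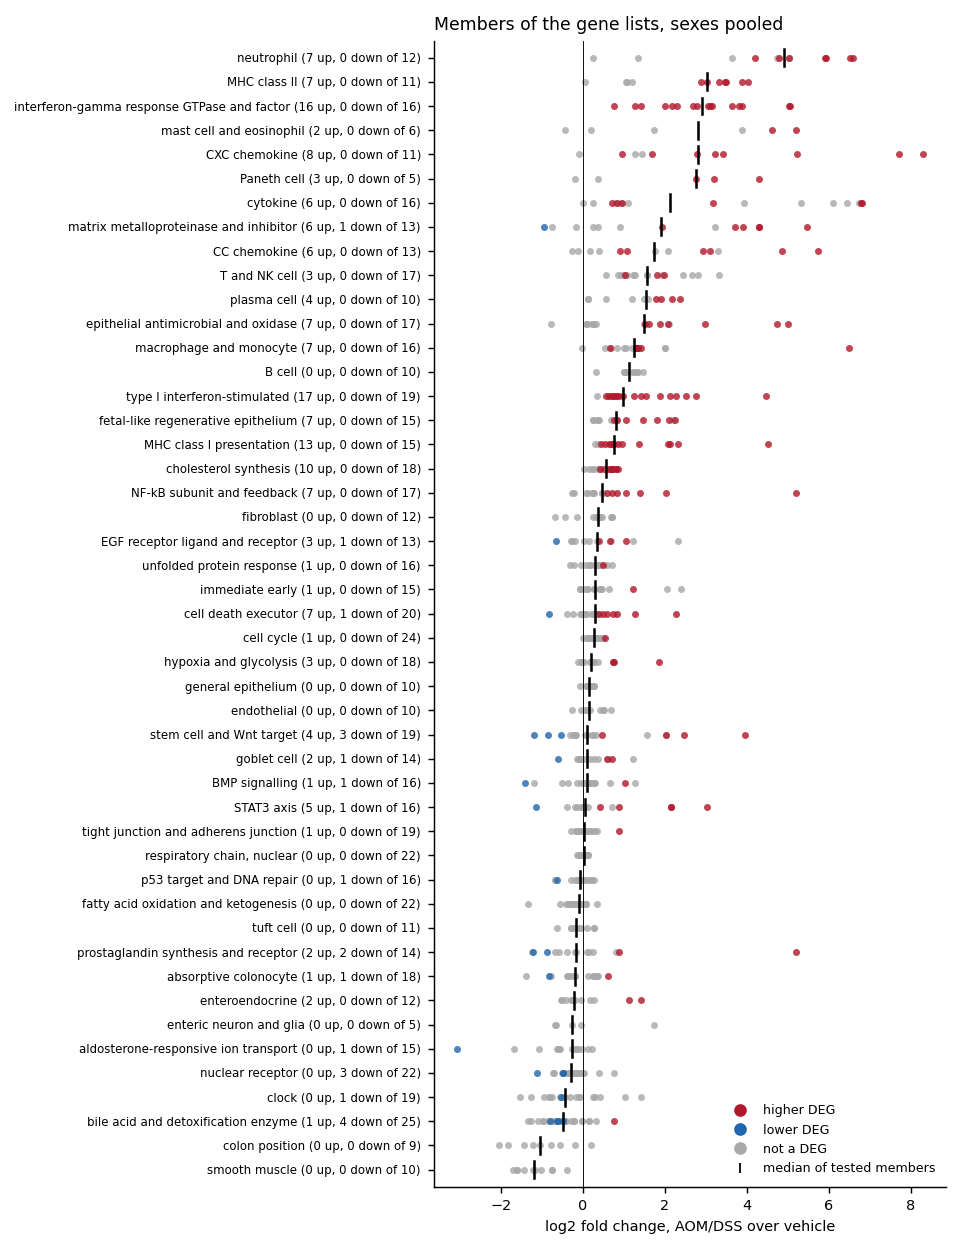
Each row is a gene list and each point 1 tested member at its log2 fold change (AOM/DSS over vehicle, x axis); red and blue points are DEGs and black bars are medians of the tested members. The neutrophil, MHC class II and interferon-gamma lists lie farthest to the right, at medians of 4.91, 3.03 and 2.92, while the smooth muscle list lies farthest to the left at -1.18 without a DEG.

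Interferon-gamma response genes were the only one of the lists in which every member was called. All 16 GTPases and factors rose (median 2.92), 9 of them without overlap, and all 16 were DEGs in the fits within females and within males (3.02% and 7.71% of all genes tested). Irf1, a transcription factor that interferon induces, started high, at 44.5 to 83.5 FPKM (median 69.5) in the vehicle libraries and 86.7 to 148.1 FPKM (median 117.8) in the AOM/DSS libraries (0.76 ± 0.12, adjusted p = 0.000155), with each AOM/DSS library above all vehicle libraries. Igtp and Irgm2, immunity-related GTPases that act on the vacuoles of intracellular parasites and bacteria, lie on chromosome 11 at chr11:58199556-58207591 and chr11:58199618-58222779, and the annotated genes overlap. Igtp was at 1.43 to 4.94 FPKM (median 3.06) in the vehicle libraries and 6.77 to 49.8 FPKM (median 28.5) in the AOM/DSS libraries (log2 fold change 3.11 ± 0.26, adjusted p = 1.27e-07). Irgm2 was at 3.21 to 5.7 FPKM (median 4.4) in the vehicle libraries and 5.85 to 35.4 FPKM (median 21.5) in the AOM/DSS libraries (2.29 ± 0.19, adjusted p = 1.27e-07). In both genes the lowest treated library was female AOM/DSS replicate 5, which nevertheless lay above the highest vehicle library. Iigp1, of the same family, had the largest change of the list (5.07 ± 0.54, medians 13.4 against 0.319 FPKM). Among guanylate-binding proteins, GTPases that coat microbes and their vacuoles, Gbp2 was at 1.36 to 7.15 FPKM (median 3.07) in the vehicle libraries and 5.86 to 64.2 FPKM (median 26.8) in the AOM/DSS libraries (3.15 ± 0.31) and Gbp3 rose by 2.78 ± 0.30. Ido1, the enzyme that degrades tryptophan, was at medians of 26.5 against 1.69 FPKM (3.87 ± 0.49), and Ifi47 at 23.5 against 2.54 FPKM (2.69 ± 0.41). Members of these families resemble each other in sequence and the annotations of Igtp and Irgm2 overlap, so reads may be shared between them.

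MHC class II genes, which present extracellular peptides to CD4 T cells, rose in 7 of 11 cases with none falling (median 3.03), and the 7 comprise peptide-binding chains, the invariant chain, the peptide loader and the transactivator. H2-DMb1, a chain of the loader, was at 0.723 to 2.68 FPKM (median 1.37) in the vehicle libraries and 3.02 to 52 FPKM (median 24.9) in the AOM/DSS libraries, with no overlap (log2 fold change 4.02 ± 0.34, adjusted p = 1.27e-07). H2-DMa, the partner chain, was at medians of 16.4 against 2.26 FPKM (2.89 ± 0.25, 1.56e-07). Cd74, the invariant chain, was at 6.9 to 86.3 FPKM (median 45) in the vehicle libraries and 55.5 to 1204 FPKM (median 611) in the AOM/DSS libraries (3.89 ± 0.44, adjusted p = 5.21e-06). The peptide-binding chains H2-Ab1, H2-Aa and H2-Eb1 rose by 3.48 ± 0.36, 3.50 ± 0.47 and 3.03 ± 0.40. Ciita, the transactivator of this gene family, was at 0.0474 to 0.721 FPKM (median 0.364) in the vehicle libraries and 0.421 to 10.1 FPKM (median 4.05) in the AOM/DSS libraries (3.32 ± 0.41, adjusted p = 1.46e-05). Ctss, the protease that trims the invariant chain, did not pass, at 192.2 against 175.6 FPKM in the medians (0.06 ± 0.08, adjusted p = 0.701). B cell markers, which also mark cells rich in class II, had a median of 1.13 with none called; their part in these values was not tested.

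MHC class I presentation, the route that shows cytosolic peptides to CD8 T cells, had 13 of 15 genes higher and none lower (median 0.76), 9 of them without overlap. Nlrc5, the transactivator of class I genes, was at 0.082 to 0.275 FPKM (median 0.184) in the vehicle libraries and 0.568 to 9.02 FPKM (median 4.85) in the AOM/DSS libraries (log2 fold change 4.52 ± 0.33, adjusted p = 9.34e-08). Psmb9 and Psmb8, subunits of the immunoproteasome, rose by 2.08 ± 0.16 and 2.12 ± 0.17, and the peptide transporter Tap1, at 3.41 to 6.49 FPKM (median 5.81) in the vehicle libraries and 8.69 to 51.7 FPKM (median 28) in the AOM/DSS libraries, by 2.33 ± 0.19 (adjusted p = 1.27e-07). B2m, the light chain of class I, was at 146.5 to 472 FPKM (median 319) in the vehicle libraries and 615 to 1315 FPKM (median 854) in the AOM/DSS libraries, so that a gene expressed strongly in vehicle colon rose by 1.37 ± 0.19 (adjusted p = 5.15e-05). The classical heavy chains H2-K1 and H2-D1 were at medians of 578 against 379.7 FPKM and 392 against 223 FPKM (0.68 ± 0.11 and 0.86 ± 0.10), both without overlap. H2-Q7, a non-classical heavy chain named after its values were seen, was at medians of 22.7 against 2.44 FPKM (3.06 ± 0.26). Class I genes are similar in sequence and may share reads.

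Of 19 genes stimulated by type I interferon 17 rose and none fell (median 0.98), 8 of them DEGs within females and 17 within males. Ifit2, which binds viral RNA, was at 0.247 to 1.39 FPKM (median 0.858) in the vehicle libraries and 2.09 to 37.9 FPKM (median 18.7) in the AOM/DSS libraries without overlap (4.46 ± 0.35, adjusted p = 1.15e-07), and the related Ifit1 at 15.3 against 5.11 FPKM in the medians (1.53 ± 0.29, adjusted p = 0.00113). Isg15, a ubiquitin-like modifier, was at 2.49 to 10.3 FPKM (median 4.86) in the vehicle libraries and 9.98 to 48.6 FPKM (median 28.1) in the AOM/DSS libraries (2.29 ± 0.28, adjusted p = 1.28e-05), and Usp18, the protease that removes it, rose by 2.76 ± 0.31 (adjusted p = 4.89e-06). Irf9, the DNA-binding part of the factor ISGF3, rose by 0.84 ± 0.08 with a small spread (adjusted p = 8.05e-07). Many of these genes also respond to interferon-gamma.

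Promoter sequences were searched for the letters to which the factors of these lists bind, because most members of the interferon lists were called. A RefSeq promoter window (GRCm38.p6, 250 bases before to 50 after a gene's start) was at hand for 11185 of the tested genes, with 14267 windows. The core of the interferon-stimulated response element, GAAANNGAA on either strand, was in 7.29% of all windows, in 15.2% of the 765 windows of higher DEGs and in 3.43% of the 408 windows of lower DEGs. In the interferon-gamma list it was in 9 of 13 windows (69.2%) and in the type I list in 9 of 17 (52.9%). The interferon-gamma activated site GAS, TTCNNNGAA, which reads alike on both strands, was in 7.09% of all windows, 8.89% of those of higher and 8.33% of those of lower DEGs, but in 7 of 13 windows (53.8%) of the interferon-gamma list. The NF-kB consensus was in 5.28% of all windows, in 9.02% of those of higher DEGs, in 11 of 16 windows (68.8%) of NF-kB subunits and feedback genes and in 4 of 8 windows of CXC chemokines. The AP-1 letters TGANTCA were in 5.8% of all windows, 14.2% of those of higher and 4.66% of those of lower DEGs. With the 150 bases before the start alone, the ISRE core was in 3.3%, 9.54% and 1.23% and AP-1 in 3.24%, 8.76% and 2.7% of all, higher and lower windows. The interferon and NF-kB lists were written from genes known to respond to these factors, so high shares in them do not come from these data. Related genes can share promoter sequence, so the windows of a list are not all independent. A match is a run of letters and was not tested as a binding site.

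The windows below are shown because their genes changed most clearly and their letters lie close to the start; each gives the 150 bases before it, 5′ to 3′ on the gene's strand, from RefSeq (GRCm38.p6), with capitals for the matches named next and for no other motif. In Igtp and Irgm2 the capitals are a GAS and then an ISRE core, which begin 45 and 34 bases before the start of Igtp and 75 and 64 bases before that of Irgm2. In Gbp2 and Isg15 they are ISRE cores, 1 in Gbp2 on the opposite strand and 3 overlapping ones in Isg15. In Cxcl2 and Cxcl3 they are the NF-kB consensus, which matched in 2 registers 1 base apart in each.
Igtp (chr11:58199406-58199555, plus strand): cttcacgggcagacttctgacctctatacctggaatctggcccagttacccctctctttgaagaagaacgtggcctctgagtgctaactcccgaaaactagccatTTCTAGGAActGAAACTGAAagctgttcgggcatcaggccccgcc
Irgm2 (chr11:58214827-58214976, plus strand): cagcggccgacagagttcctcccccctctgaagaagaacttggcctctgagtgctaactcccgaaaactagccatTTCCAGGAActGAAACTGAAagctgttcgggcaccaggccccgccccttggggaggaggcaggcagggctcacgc
Gbp2 (chr3:142620513-142620662, plus strand): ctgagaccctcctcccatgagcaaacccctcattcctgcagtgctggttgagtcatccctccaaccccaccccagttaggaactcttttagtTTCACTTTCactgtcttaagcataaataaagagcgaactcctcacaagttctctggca
Isg15 (chr4:156200819-156200968, minus strand): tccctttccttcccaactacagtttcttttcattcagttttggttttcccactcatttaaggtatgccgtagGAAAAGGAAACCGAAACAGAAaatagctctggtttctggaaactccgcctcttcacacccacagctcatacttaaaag
Cxcl2 (chr5:90903749-90903898, plus strand): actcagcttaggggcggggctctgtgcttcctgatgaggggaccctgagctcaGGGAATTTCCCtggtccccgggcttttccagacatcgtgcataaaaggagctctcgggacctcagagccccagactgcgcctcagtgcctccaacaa
Cxcl3 (chr5:90785951-90786100, plus strand): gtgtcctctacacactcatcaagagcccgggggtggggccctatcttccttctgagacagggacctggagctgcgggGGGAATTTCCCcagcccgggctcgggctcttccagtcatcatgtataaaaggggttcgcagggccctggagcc
Both GTPase genes, with fold changes of 8.66 and 4.88, carried the same elements in the same order and spacing. Their windows are also alike in the bases around the capitals, so they are not independent examples. Both chemokine genes, almost silent in vehicle colon, carried the same capitals at different distances.

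**Figure D3:**
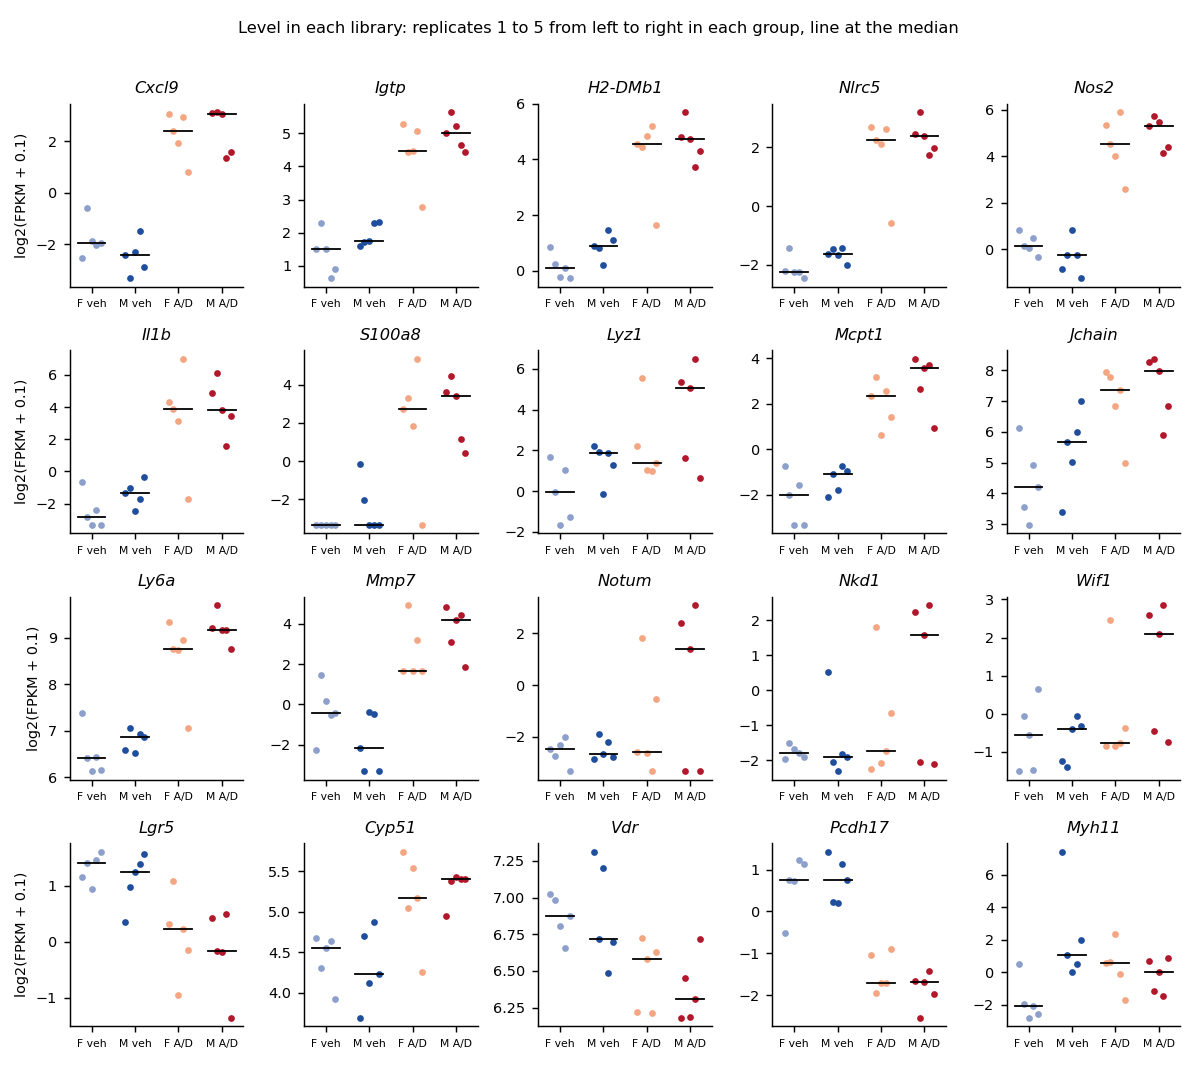
Each panel shows 1 gene, with log2(FPKM + 0.1) on the y axis and female vehicle (F veh), male vehicle (M veh), female AOM/DSS (F A/D) and male AOM/DSS (M A/D) libraries on the x axis; points are replicates 1 to 5 from left to right and lines are medians. Igtp, H2-DMb1, Nlrc5, Nos2 and Cxcl9 are higher in all AOM/DSS libraries, Notum, Nkd1, Wif1 and Lyz1 are high in the same 4 of 10, Pcdh17 is lower in all, and Myh11 is set apart by 1 male vehicle library.

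NF-kB, the factor downstream of TNF and interleukin-1, is known for inducing its own inhibitors. Of 17 subunits and feedback genes 7 rose and none fell (median 0.47). The inhibitors Nfkbia, Nfkbie and Nfkbiz rose by 0.58 ± 0.12, 1.06 ± 0.17 and 0.84 ± 0.15 (adjusted p = 0.00174, 0.000195 and 0.000566). Icam1, an adhesion molecule for leukocytes and a target of the factor, was at 0.269 to 1.41 FPKM (median 0.878) in the vehicle libraries and 0.866 to 5.11 FPKM (median 3.79) in the AOM/DSS libraries, above all vehicle libraries in 9 of 10 (2.02 ± 0.25, adjusted p = 1.61e-05). Rel, the subunit of lymphoid cells, rose by 0.72 ± 0.13, and the feedback regulator Tnip3 by 1.4 ± 0.27. Tnfaip3, the deubiquitinase A20, did not pass, at 16.8 against 12.7 FPKM in the medians (0.28 ± 0.17, adjusted p = 0.282).

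Along the STAT3 axis 5 of 16 genes rose and 1 fell, with a median of 0.05. Socs3, the feedback inhibitor of STAT3 signalling, was at 1.8 to 4.18 FPKM (median 2.89) in the vehicle libraries and 3.7 to 20.2 FPKM (median 13.2) in the AOM/DSS libraries (2.15 ± 0.24, adjusted p = 5.21e-06), and Socs1, of the same family, at medians of 2.2 against 0.408 FPKM (2.16 ± 0.29, 3.34e-05). Osmr, the receptor of oncostatin M, was at 0 to 0.695 FPKM (median 0.124) in the vehicle libraries and 0.108 to 2.9 FPKM (median 1.9) in the AOM/DSS libraries (3.02 ± 0.47, adjusted p = 0.000196), whereas Lifr, the related receptor of leukaemia inhibitory factor, fell (-1.14 ± 0.32, adjusted p = 0.0195), a call that was lost without male vehicle replicate 1 and without the 3 libraries that stood apart. Stat3 itself rose by 0.42 ± 0.08 (adjusted p = 0.0015), close to the fold threshold, and Pim1, a kinase it induces, by 0.90 ± 0.21.

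Genes listed for epithelial defence showed increases in oxidant-producing enzymes. Which cells of the scrapes these transcripts came from was not tested. Of 17 tested genes 7 rose and none fell (median 1.49). Nos2, the inducible nitric oxide synthase, was at 0.322 to 1.67 FPKM (median 0.843) in the vehicle libraries and 5.87 to 59.4 FPKM (median 31.4) in the AOM/DSS libraries, the groups well apart (log2 fold change 5.01 ± 0.41, adjusted p = 1.27e-07). Duox2, the hydrogen peroxide-producing oxidase of the epithelium, was at 12.6 to 54.7 FPKM (median 36.4) in the vehicle libraries and 66.6 to 122.2 FPKM (median 102.3) in the AOM/DSS libraries (1.52 ± 0.20, adjusted p = 4.06e-05), and Duoxa2, the factor that matures it, at 5.11 to 27.6 FPKM (median 18.5) in the vehicle libraries and 45.2 to 97.6 FPKM (median 63.1) in the AOM/DSS libraries (2.08 ± 0.28, adjusted p = 3.65e-05). Neither gene overlapped between the groups. The superoxide-producing Nox1 rose by 1.62 ± 0.35, the iron-sequestering lipocalin Lcn2 by 4.74 ± 0.74, the protease inhibitor Slpi by 2.98 ± 0.72 and the serum amyloid Saa3 by 1.88 ± 0.56. Reg3b and Reg3g, antibacterial lectins of the gut, did not pass and ranged widely among vehicle mice. Reg3b was at 0 to 1694 FPKM (median 98.7) in the vehicle libraries and 94.1 to 1967 FPKM (median 533) in the AOM/DSS libraries (1.49 ± 1.07, adjusted p = 0.373), and Reg3g at medians of 160.2 against 25.5 FPKM (2.09 ± 0.98, adjusted p = 0.154).

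Among 20 executors of cell death 7 rose and 1 fell (median 0.29), and the largest increases lay in necroptosis, a lytic death driven by a kinase and a pore. Zbp1, the sensor of Z-form nucleic acids, was at 5.11 to 13 FPKM (median 8.45) in the vehicle libraries and 18 to 66.7 FPKM (median 40.8) in the AOM/DSS libraries (2.26 ± 0.19, adjusted p = 1.27e-07). Ripk3, the kinase, was at 6.87 to 13 FPKM (median 11.4) in the vehicle libraries and 19.4 to 34.2 FPKM (median 25.5) in the AOM/DSS libraries (1.27 ± 0.12, adjusted p = 8.05e-07), and Mlkl, the pore, at medians of 14 against 7.43 FPKM (0.85 ± 0.12, adjusted p = 7.05e-05). In all 3 genes no AOM/DSS library overlapped a vehicle library. Casp8, which restrains this pathway, rose by 0.59 ± 0.09, and Casp4, the caspase that senses lipopolysaccharide, by 0.74 ± 0.14 (adjusted p = 0.00121). Casp1 did not pass at 104.2 against 83.9 FPKM in the medians (0.19 ± 0.08, adjusted p = 0.125). Gsdmc3, a gasdermin of the epithelium, fell (-0.83 ± 0.23, adjusted p = 0.0185).

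T and NK cell genes reached at most 5.52 FPKM (Gzma) in any library, and 3 of 17 rose with none falling (median 1.56). Gzma and Gzmb, proteases of cytotoxic granules, were at medians of 2.04 against 0.318 FPKM and 1.2 against 0.121 FPKM (1.98 ± 0.61 and 1.82 ± 0.61, adjusted p = 0.0309 and 0.0464), and Nkg7, a granule membrane protein, rose by 1.03 ± 0.33 (adjusted p = 0.036). None of the 3 was called in more than 16 of 20 fits without 1 library. No gene of the list was a DEG without female vehicle replicate 5, male vehicle replicate 5, female AOM/DSS replicate 4 or male AOM/DSS replicate 2, and 1 was without female vehicle replicates 1 or 4, male vehicle replicate 4, or male AOM/DSS replicates 1 or 3. Cd3e and Cd3d, chains of the T cell receptor complex, gave 0.93 ± 0.30 (adjusted p = 0.035, under the FPKM minimum) and 1.01 ± 0.35 (adjusted p = 0.0527). Ctla4 and Foxp3, an inhibitory receptor and the factor of regulatory T cells, differed at levels below the minimum. Their medians were 0.457 against 0.029 FPKM and 0.0865 against 0 FPKM (3.34 ± 0.59 and 2.66 ± 0.48, adjusted p = 0.000627 and 0.000735). Cd274, the checkpoint ligand PD-L1 and a gene named after its values were seen, was at medians of 6.33 against 2.26 FPKM (1.47 ± 0.19, adjusted p = 3.40e-05).

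Of 10 B cell genes none was called, at a median of 1.13. The B cell surface protein Ms4a1 (CD20) was at 1.36 ± 0.47 (adjusted p = 0.0527). Leaving out female AOM/DSS replicate 5 gave 2 higher DEGs, and leaving out female vehicle replicates 1 or 4, male vehicle replicates 2 or 4, or male AOM/DSS replicate 5 gave 1, as did leaving out the 3 libraries that stood apart. Plasma cells, which secrete antibody into the gut, were represented by 4 higher genes of 10 and none lower (median 1.55). Jchain, which joins IgA monomers, was at 7.81 to 129.0 FPKM (median 31.1) in the vehicle libraries and 32 to 332 FPKM (median 191.2) in the AOM/DSS libraries (2.17 ± 0.46, adjusted p = 0.0026). Igha, the IgA heavy chain constant region, was at 47.2 to 501 FPKM (median 125.1) in the vehicle libraries and 191.4 to 2367 FPKM (median 948) in the AOM/DSS libraries (2.38 ± 0.45, adjusted p = 0.00101). Prdm1, the plasma cell factor BLIMP1 that epithelium and T cells can also express, was at 0.209 to 1.11 FPKM (median 0.483) in the vehicle libraries and 1.15 to 2.9 FPKM (median 1.72) in the AOM/DSS libraries, without overlap (1.80 ± 0.24, adjusted p = 4.18e-05), and Mzb1, a chaperone of antibody secretion, rose by 1.91 ± 0.51. Variable segments of antibodies, a family added after its members were seen among the largest changes, had 350 segments in the table, of which 211 were under the count filter. Of the others 79 (56.8%) were higher and none lower, each had a positive value, and the median was 2.47. Their summed FPKM ran from 65.8 to 732 (median 166.2) in vehicle and from 276 to 2846 (median 1341) in AOM/DSS libraries. Ighv3-8, of that family, rose by 5.15 ± 0.74. Constant regions named after their values were seen included Ighg2b, of an IgG class, at medians of 15.4 against 1.07 FPKM (3.46 ± 0.51), and Igkc at 1467 against 239 FPKM (2.25 ± 0.45). Segments resemble each other closely and can share reads.

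The mucosal mast cell proteases Mcpt1 and Mcpt2 were the 2 higher genes among 6 tested mast cell and eosinophil genes (median 2.81). Mcpt1 was at 0 to 0.501 FPKM (median 0.215) in the vehicle libraries and 1.41 to 15.6 FPKM (median 5.96) in the AOM/DSS libraries (4.62 ± 0.50, adjusted p = 2.94e-06), and Mcpt2 at 0 to 0.338 FPKM (median 0.0439) in the vehicle libraries and 0.349 to 6.74 FPKM (median 2.9) in the AOM/DSS libraries (5.19 ± 0.64, adjusted p = 1.55e-05), both without overlap. Cpa3, the carboxypeptidase of mast cell granules, differed at a level below the FPKM minimum (3.89 ± 0.68, adjusted p = 0.0005). Without female or male vehicle replicate 1, or without the 3 libraries that stood apart, 1 gene of this list was lower.

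Stromal lists gave no pooled DEG. All 10 smooth muscle genes had a negative value (median -1.18), with Myh11 at 0.0452 to 169.9 FPKM (median 1.13) in the vehicle libraries and 0.204 to 4.95 FPKM (median 1.15) in the AOM/DSS libraries (-1.59 ± 1.88, adjusted p = 0.617) and Acta2, smooth muscle actin, at -1.01 ± 1.48 (adjusted p = 0.696). Those directions rested on male vehicle replicate 1. Without it Myh11 was at 0.59 and Acta2 at 0.91, and 1 muscle gene and 2 of 12 fibroblast genes were higher. Within the sexes the muscle median was 2.34 in females, with no DEG, and -4.3 in males, where 6 of the 10 genes were lower DEGs. In the same fits without that library it was 2.33 in females, with 4 genes higher, and -0.75 in males, with none called. Without the 3 libraries that stood apart, 4 fibroblast genes and 1 muscle gene were higher in the pooled comparison. The fibroblast median was 1.56 in females and -0.73 in males, and the endothelial median 1.16 and -0.53, with no DEG in either sex. In the test of the interaction of sex and treatment, 10 of 12 fibroblast and 2 of 10 endothelial genes had an unadjusted p under 0.05. No gene passed after adjustment. Male vehicle replicate 1 was the highest vehicle library for both lists. The collagens Col1a1 and Col1a2 were at 0.68 ± 0.58 and 0.38 ± 0.57 (adjusted p = 0.464 and 0.704), and the endothelial adhesion proteins Pecam1 and Cdh5 at 0.07 ± 0.30 and 0.68 ± 0.62 (0.903 and 0.498). The glial gene S100b was under the filter on low counts. With the level of stromal genes as a covariate, 895 of the 911 higher and 410 of the 422 lower DEGs were called again.

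**Figure D4:**
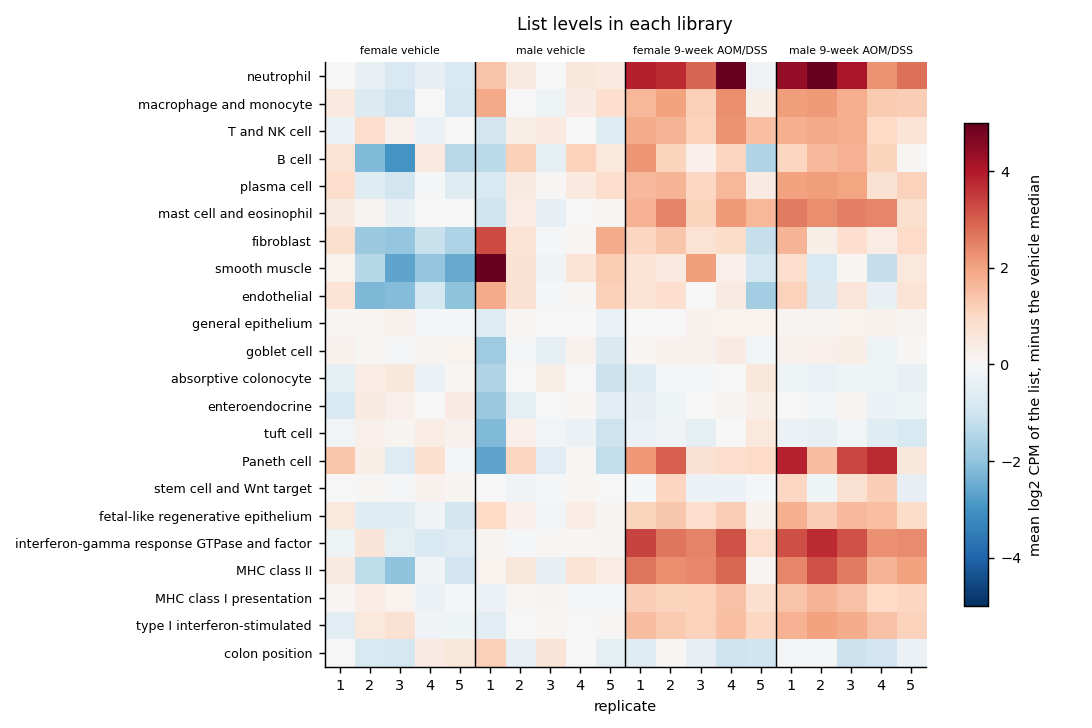
Rows are gene lists and columns the 20 libraries; colour gives the mean log2 CPM of a list in a library minus the median of the 10 vehicle libraries. Interferon and MHC rows are higher across the AOM/DSS libraries, weakest in female AOM/DSS replicate 5, and muscle, fibroblast and endothelial rows are highest in male vehicle replicate 1.

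Of 10 genes shared by all epithelial cells none was a DEG (median 0.16), with Epcam, an adhesion molecule of epithelium, at 0.22 ± 0.06 (adjusted p = 0.013, within the fold threshold) and Cdh1, E-cadherin, at 0.11 ± 0.09 (adjusted p = 0.439). Of 14 goblet cell genes 2 rose and 1 fell (median 0.11). Muc13, a transmembrane mucin, was at 523 to 786 FPKM (median 668) in the vehicle libraries and 773 to 1283 FPKM (median 1032) in the AOM/DSS libraries (0.60 ± 0.07, adjusted p = 1.28e-05), and Spink4, a protease inhibitor of goblet cells, rose by 0.72 ± 0.22 (adjusted p = 0.0323), kept in 9 of 20 fits without 1 library. Klk1, a kallikrein, fell (-0.60 ± 0.16, adjusted p = 0.0155). The gel-forming mucin Muc2 and the trefoil factor Tff3 did not pass, at medians of 2386 against 3100.1 FPKM and 1095 against 749.7 FPKM (-0.08 ± 0.31 and 0.27 ± 0.16, adjusted p = 0.886 and 0.267).

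Of 18 genes of absorptive colonocytes 1 rose and 1 fell (median -0.18). Krt20, a keratin of mature surface cells, was at 235 to 576 FPKM (median 408) in the vehicle libraries and 536 to 702 FPKM (median 593) in the AOM/DSS libraries (0.61 ± 0.15, adjusted p = 0.00837), and Abcb1a, an efflux pump for drugs and toxins, at 85.2 to 249 FPKM (median 161.9) in the vehicle libraries and 63.6 to 168.2 FPKM (median 91.9) in the AOM/DSS libraries (-0.82 ± 0.21, adjusted p = 0.0107). The chloride-bicarbonate exchanger Slc26a3 and the carbonic anhydrase Car1 were at -0.33 ± 0.21 and -0.78 ± 0.53 (adjusted p = 0.293 and 0.342). Without the 3 libraries that stood apart 4 genes of this list were lower, without female AOM/DSS replicate 5 alone 2 were, and without female vehicle replicate 1 it was 2 that rose. Among 12 enteroendocrine genes 2 rose (median -0.21). Tac1, the precursor of substance P, was at 1.74 to 5.05 FPKM (median 2.29) in the vehicle libraries and 2.9 to 15.5 FPKM (median 7.65) in the AOM/DSS libraries (1.43 ± 0.22, adjusted p = 0.000141), and Cck, which encodes cholecystokinin, rose by 1.12 ± 0.35 (adjusted p = 0.0307), in 11 of 20 fits without 1 library. The granule proteins Chga and Chgb were at -0.51 ± 0.30 and -0.42 ± 0.27 (adjusted p = 0.269 and 0.307). Both were lower DEGs without the 3 libraries that stood apart, and 1 gene of the list, Tac1, was then higher. None of 11 tuft cell genes was called (median -0.17), with the kinase Dclk1 at -0.20 ± 0.23 and the channel Trpm5 at -0.30 ± 0.37 (adjusted p = 0.618 and 0.642). Without the 3 libraries that stood apart 2 tuft cell genes, Trpm5 among them, were lower.

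Genes of Paneth cells, secretory cells of the small intestine that the mouse colon normally lacks, had 3 of 5 tested members higher (median 2.76). A further 3 listed members were under the filter on low counts and are not in that median. Pla2g2a, a gene of the phospholipase A2 family whose enzyme was not measured, was at 0.363 to 9.38 FPKM (median 3.77) in the vehicle libraries and 4.9 to 43.2 FPKM (median 34.6) in the AOM/DSS libraries (2.76 ± 0.42, adjusted p = 0.000155). Mmp7, the protease that activates defensins and also a target of Wnt signalling, was at 0 to 2.61 FPKM (median 0.602) in the vehicle libraries and 3.01 to 30.2 FPKM (median 8.74) in the AOM/DSS libraries, without overlap (4.30 ± 0.69, adjusted p = 0.000253). Lyz1, the lysozyme of Paneth cells, ran at 0.218 to 4.52 FPKM (median 2.17) in the vehicle libraries and 1.48 to 90.2 FPKM (median 3.74) in the AOM/DSS libraries (3.20 ± 0.75, adjusted p = 0.00541), and its paralog Lyz2 can share reads with it. Defa24, a defensin, was under the filter. The increase of Lyz1 lay in 4 libraries, female AOM/DSS replicate 2 at 46.4 FPKM and male AOM/DSS replicates 1, 3 and 4 at 41.2, 33.4 and 90.2 FPKM, while the other 6 stayed between 1.48 and 4.51 FPKM, inside the vehicle range.

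Stem cell and Wnt target genes moved in both directions, with 4 of 19 higher and 3 lower (median 0.11). Notum, Nkd1 and Wif1, secreted or cytoplasmic inhibitors that Wnt signalling induces against itself, rose by 3.97 ± 1.03, 2.46 ± 0.74 and 2.03 ± 0.61 (adjusted p = 0.0112, 0.0256 and 0.0263). Notum, an enzyme that removes the lipid from Wnt proteins, did not exceed 0.17 FPKM in vehicle colon. It was at 3.43 FPKM in female AOM/DSS replicate 2 and at 5.15, 2.49 and 8.33 FPKM in male AOM/DSS replicates 1, 3 and 4, while of the other 6 treated libraries female replicate 5 was at 0.594 FPKM and the rest at 0.0656 FPKM or below. Nkd1 was highest in the same 4 libraries, at 3.40, 4.59, 2.86 and 5.27 FPKM, as was Wif1, at 5.44, 5.88, 4.18 and 7.11 FPKM, the next treated library being at 0.535 FPKM for Nkd1 and 0.669 FPKM for Wif1. Vehicle libraries ran at 0.101 to 1.33 (median 0.174) FPKM for Nkd1, the highest being male vehicle replicate 1, and at 0.251 to 1.48 (median 0.623) FPKM for Wif1. These 4 were also the highest for Lyz1 and for Mmp7, whose values there were 30.2, 28.2, 18.4 and 21.2 FPKM. Without female AOM/DSS replicate 2, none of the 4 higher genes of the list was a DEG any longer, Tcf7 (0.48 ± 0.16, adjusted p = 0.0385) included. The stem cell genes went the other way. Lgr5, the receptor that marks crypt base stem cells, was at 1.18 to 2.96 FPKM (median 2.4) in the vehicle libraries and 0.29 to 2.03 FPKM (median 0.942) in the AOM/DSS libraries, below the vehicle range in 7 of 10 libraries (-1.20 ± 0.25, adjusted p = 0.00239). Ascl2, the factor of these cells, fell (-0.84 ± 0.17, adjusted p = 0.00235), as did Smoc2 (-0.52 ± 0.18, adjusted p = 0.0491), the latter in 8 of 20 fits without 1 library. Axin2, a general reporter of Wnt signalling, did not pass at 5.07 against 5.79 FPKM in the medians (-0.24 ± 0.15, adjusted p = 0.294).

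Genes of the fetal-like, regenerating epithelium had 7 of 15 members higher and none lower (median 0.82). Ly6a, the surface protein Sca-1, was at 70.0 to 167.5 FPKM (median 94) in the vehicle libraries and 134.3 to 831 FPKM (median 534) in the AOM/DSS libraries (2.24 ± 0.21, adjusted p = 4.28e-07), and it is also inducible by interferon. Sprr1a, a cornified envelope protein, was at 1.76 to 21.6 FPKM (median 8.96) in the vehicle libraries and 16.7 to 52.5 FPKM (median 31.3) in the AOM/DSS libraries (1.82 ± 0.34, adjusted p = 0.000944), Clu, clusterin, at medians of 22.1 against 5.88 FPKM (1.47 ± 0.39), Ly6d at 10.2 against 2.04 FPKM (2.10 ± 0.44) and Anxa1, annexin A1, at 108.9 against 57.3 FPKM (0.77 ± 0.17, adjusted p = 0.00445). Areg, the EGF receptor ligand amphiregulin, was at 6.0 to 17.1 FPKM (median 8.55) in the vehicle libraries and 6.71 to 30.4 FPKM (median 22.4) in the AOM/DSS libraries (1.06 ± 0.20, adjusted p = 0.00116).

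Ligands and receptors of the EGF family had 3 of 13 higher and 1 lower (median 0.34). Beside Areg, the ligand Btc rose by 0.66 ± 0.16 (adjusted p = 0.00857) and the receptor Egfr by 0.41 ± 0.09 (adjusted p = 0.00356), just past the fold threshold, while the ligand Egf fell (-0.66 ± 0.15, adjusted p = 0.00497). The co-receptor Erbb2 was at -0.29 ± 0.15 (adjusted p = 0.204). Of 16 BMP genes, whose signal opposes stemness along the crypt, Bmp8b rose by 1.03 ± 0.25 (adjusted p = 0.00633) and Bmp3 fell (-1.40 ± 0.35, adjusted p = 0.00878), and Bmp2 did not pass (-0.52 ± 0.23, 0.143). Without the 3 libraries that stood apart 2 rose. In the prostaglandin pathway 2 of 14 rose and 2 fell (median -0.17). Ptgs2, the inducible cyclooxygenase COX-2, was at 0 to 0.608 FPKM (median 0.075) in the vehicle libraries and 0.0655 to 28.4 FPKM (median 2.43) in the AOM/DSS libraries (5.21 ± 0.98, adjusted p = 0.00102), and Ptges, the synthase of prostaglandin E2, rose by 0.89 ± 0.29 (adjusted p = 0.0377), in 5 of 20 fits without 1 library. Hpgd, which degrades prostaglandins, was at 73.9 to 205 FPKM (median 96.8) in the vehicle libraries and 44.5 to 166.6 FPKM (median 56.1) in the AOM/DSS libraries (-0.88 ± 0.24, adjusted p = 0.0147), below all vehicle libraries in 9 of 10, and the receptor Ptger3 fell (-1.20 ± 0.28, adjusted p = 0.00474). Ptgs1, the constitutive cyclooxygenase, was at -0.18 ± 0.20 (adjusted p = 0.596). Of 13 metalloproteinases and inhibitors 6 rose and 1 fell (median 1.92). The stromelysins Mmp10 and Mmp3 rose by 5.48 ± 0.82 and 4.30 ± 0.84 and the collagenase Mmp13 by 3.72 ± 0.64 (adjusted p = 0.000124, 0.00135 and 0.000439). Mmp2, the gelatinase of fibroblasts, did not pass (0.24 ± 0.41, 0.737), and the inhibitor Timp2 fell (-0.94 ± 0.30, adjusted p = 0.0371), in 12 of 20 fits without 1 library.

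Proliferation genes were called in 1 case. Of 24 cell cycle genes Ccnd1, cyclin D1, was the one called (0.53 ± 0.17, adjusted p = 0.0371), in 8 of 20 fits without 1 library. The list had 23 positive values and 1 negative one, with a median of 0.28. Mki67 and Top2a, markers of cycling cells, were at medians of 16 against 14.8 FPKM and 22.3 against 19.3 FPKM (0.11 ± 0.16 and 0.29 ± 0.16, adjusted p = 0.701 and 0.237). Of 16 p53 targets and DNA repair genes Mgmt, which removes alkyl groups of the kind AOM leaves on guanine, was at 1.32 to 3.15 FPKM (median 2.32) in the vehicle libraries and 0.89 to 2.59 FPKM (median 1.51) in the AOM/DSS libraries and fell (-0.62 ± 0.19, adjusted p = 0.029), and it lost the call without any of female vehicle replicate 2, male vehicle replicate 3, female AOM/DSS replicates 1 and 3 and male AOM/DSS replicate 1. The p53 targets Cdkn1a and Mdm2 were at -0.11 ± 0.12 and 0.06 ± 0.05 (adjusted p = 0.582 and 0.491). Among hypoxia and glycolysis genes 3 of 18 rose (median 0.21): Pfkfb3, which drives glycolytic flux, by 1.87 ± 0.31, hexokinase 2 (Hk2) by 0.75 ± 0.15 and adrenomedullin (Adm) by 0.76 ± 0.17 (adjusted p = 0.000304, 0.00174 and 0.0038). Hif1a and the glucose transporter Slc2a1 were at 0.74 ± 0.30 and 0.28 ± 0.10 (adjusted p = 0.094 and 0.0485, the latter within the fold threshold). In the unfolded protein response 1 of 16 rose, Sdf2l1 (0.50 ± 0.14, adjusted p = 0.0174), with the chaperone Hspa5 at 0.44 ± 0.17 and the factor Xbp1 at 0.15 ± 0.10 (adjusted p = 0.0924 and 0.302). It was 4 of 16 without female AOM/DSS replicate 5 or without male vehicle replicate 4, and 3 higher and 1 lower without the 3 libraries that stood apart. Of 15 immediate early genes Ier3 rose (1.23 ± 0.22, adjusted p = 0.000648), and Fos and Fosb, which answer to handling and growth signals, did not pass (0.43 ± 0.22 and 0.28 ± 0.29, 0.199 and 0.566); 5 rose without female vehicle replicate 4. Of 19 clock genes none rose and 1 fell (median -0.43). Among them Nr1d1 and Arntl were at -0.75 ± 0.33 and 0.25 ± 0.25 (adjusted p = 0.124 and 0.54), and 1 gene of this list was higher without the 3 libraries that stood apart. The clock median was -0.06 in females, with no DEG, and -0.54 in males, with 3 genes higher and 2 lower. In the test of the interaction of sex and treatment, 8 of the 19 had an unadjusted p under 0.05. Among all 16072 genes 1430 did, and none passed after adjustment. Of 19 junction genes Cldn4 rose, at 12.3 to 32.5 FPKM (median 24.5) in the vehicle libraries and 22.4 to 59.4 FPKM (median 44) in the AOM/DSS libraries (0.88 ± 0.18, adjusted p = 0.00205), occludin (Ocln) was at -0.27 ± 0.08, within the fold threshold (adjusted p = 0.017), and Tjp1 at -0.07 ± 0.13 (adjusted p = 0.76).

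Lower genes had smaller changes than higher ones. Among the 10 with the largest decreases without overlap was Prkar2b, a regulatory subunit of protein kinase A, at 0.665 to 1.8 FPKM (median 0.985) in the vehicle libraries and 0.271 to 0.665 FPKM (median 0.362) in the AOM/DSS libraries (-1.43 ± 0.18, adjusted p = 1.98e-05). The phospholipid scramblase Plscr2 was at medians of 0.868 against 1.73 FPKM (-1.23 ± 0.19). Adck3, a kinase-like protein of coenzyme Q synthesis, was at 7.71 to 18.2 FPKM (median 9.49) in the vehicle libraries and 3.91 to 6.78 FPKM (median 4.95) in the AOM/DSS libraries (-1.0 ± 0.12, adjusted p = 1.46e-05). Cpm, a membrane carboxypeptidase (-0.96 ± 0.13), and the predicted gene Gm10399 (-0.86 ± 0.16) fell too. Gpam, the mitochondrial acyltransferase that begins triglyceride synthesis, was at 3.49 to 6.15 FPKM (median 4.4) in the vehicle libraries and 1.34 to 3.73 FPKM (median 2.65) in the AOM/DSS libraries (-0.82 ± 0.14, adjusted p = 0.00032), so that on the FPKM scale the groups touched in 2 AOM/DSS libraries. Gpt2, the mitochondrial alanine aminotransferase, was at 6.26 to 11.3 FPKM (median 7.54) in the vehicle libraries and 4.19 to 5.84 FPKM (median 5.15) in the AOM/DSS libraries (-0.64 ± 0.08, adjusted p = 3.17e-05), Lyplal1 at -0.70 ± 0.12 and the lysophosphatidic acid receptor Lpar1 at -0.49 ± 0.09.

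Further genes with small adjusted p-values among those lower were named after their values were seen. Pck1, phosphoenolpyruvate carboxykinase of gluconeogenesis, was at 40.4 to 70.5 FPKM (median 59.8) in the vehicle libraries and 22.3 to 56.9 FPKM (median 32.8) in the AOM/DSS libraries (-0.77 ± 0.12, adjusted p = 0.000218). Oat, ornithine aminotransferase, was at medians of 42.8 against 71 FPKM (-0.70 ± 0.11), and Cps1, which makes carbamoyl phosphate for citrulline and urea, at 0.364 against 1.51 FPKM (-2.10 ± 0.36). Ppargc1a, the coactivator of mitochondrial biogenesis, was at 6.71 to 13.9 FPKM (median 9.07) in the vehicle libraries and 3.11 to 8.69 FPKM (median 5.02) in the AOM/DSS libraries (-0.81 ± 0.14, adjusted p = 0.000406), and Mlxipl, the carbohydrate-sensing factor ChREBP, fell (-0.68 ± 0.11). Also lower were Maob, a monoamine oxidase (-0.99 ± 0.17), the prolactin receptor Prlr (-1.68 ± 0.34), Il17re, a receptor chain for interleukin-17C (-0.65 ± 0.10), and Rftn2, a lipid raft protein (-1.26 ± 0.16). On the higher side, genes likewise named after their values were seen were Gsap at 0.31 to 0.795 FPKM (median 0.438) in the vehicle libraries and 1.31 to 4.86 FPKM (median 3.43) in the AOM/DSS libraries (2.61 ± 0.19, adjusted p = 9.34e-08), Ubd, the ubiquitin-like protein FAT10, at 0.942 to 2.49 FPKM (median 1.79) in the vehicle libraries and 9.72 to 67.9 FPKM (median 28.3) in the AOM/DSS libraries (4.07 ± 0.32, adjusted p = 1.15e-07), Trim40, of the tripartite motif ubiquitin ligases (1.63 ± 0.13), Plac8, a gene with high levels in all libraries, at 395 to 617 FPKM (median 540.2) in the vehicle libraries and 716 to 1381 FPKM (median 985) in the AOM/DSS libraries (0.88 ± 0.09), and Irg1, the itaconate-making enzyme of macrophages (7.38 ± 0.98).

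Nuclear receptors, the ligand-bound factors that set much of colonocyte metabolism, had 3 of 22 members lower and none higher (median -0.28). Vdr, the vitamin D receptor, was at 89.6 to 158.9 FPKM (median 114.7) in the vehicle libraries and 72.5 to 105.8 FPKM (median 83.3) in the AOM/DSS libraries (-0.48 ± 0.11, adjusted p = 0.00454), below the vehicle range in 6 of 10 libraries. Nr5a2, which promotes steroid synthesis in the gut, fell (-0.48 ± 0.11, adjusted p = 0.00615), as did Ppara, the receptor for fatty acids (-1.11 ± 0.33, adjusted p = 0.0246). Nr3c2, the mineralocorticoid receptor, was at -0.37 ± 0.10, within the fold threshold (adjusted p = 0.0158). Of 15 genes of aldosterone-responsive ion transport, 13 had negative values (median -0.27) and 1 was called. Fxyd4, a regulator of the sodium pump that aldosterone induces, was at 0.0984 to 49.3 FPKM (median 10.5) in the vehicle libraries and 0 to 4.02 FPKM (median 1.19) in the AOM/DSS libraries (-3.07 ± 0.76, adjusted p = 0.00776), a gene whose vehicle libraries themselves span a wide range. The sodium channel subunits Scnn1a and Scnn1b did not pass (-0.27 ± 0.15 and -0.64 ± 0.33, adjusted p = 0.234 and 0.207). Without female vehicle replicate 4, male vehicle replicate 5 or male AOM/DSS replicate 5, 3 of the 15 were lower, and without female vehicle replicate 1, male vehicle replicate 3 or female AOM/DSS replicate 5, 2 were, as without the 3 libraries that stood apart.

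Enzymes of detoxification and bile acid handling had negative values in 21 of 25 cases, with 4 lower and 1 higher called (median -0.48). The glucuronosyltransferases Ugt2b35 and Ugt2b34 fell, with changes of -0.80 ± 0.14 and -0.48 ± 0.11 (adjusted p = 0.000387 and 0.0057), the latter with 114.7 to 192.9 (median 151.1) FPKM in vehicle and 90.4 to 147.3 (median 108.0) FPKM in AOM/DSS libraries. The sulfotransferase Sult1a1 fell as well (-0.63 ± 0.19, adjusted p = 0.0286), and the glutathione transferase Gsta3 rose by 0.77 ± 0.19 (adjusted p = 0.0092). Ugt1a1 did not pass at 1.9 to 53.7 FPKM (median 10.8) in the vehicle libraries and 2.7 to 53.7 FPKM (median 5.31) in the AOM/DSS libraries (-1.26 ± 0.61, adjusted p = 0.171). The number of lower enzymes hung on single libraries, being 12 without female AOM/DSS replicate 5 and 15 without the 3 libraries that stood apart, and 2 without any one of female vehicle replicate 2, male vehicle replicate 3, female AOM/DSS replicates 1, 2 and 4 and male AOM/DSS replicates 1, 2 and 3. Fatty acid oxidation and ketogenesis had no DEG among 22 genes (median -0.1), with Cpt1a, which moves fatty acids into mitochondria, at -0.21 ± 0.10 (adjusted p = 0.157). Without female AOM/DSS replicate 5, 2 of them were lower, and without the 3 libraries that stood apart 1 was. None of 22 nuclear genes of the respiratory chain was called (median 0.02), Ndufa4 being at 0.13 ± 0.13 and Ndufb5 at -0.04 ± 0.08 (adjusted p = 0.524 and 0.808).

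Cholesterol synthesis genes rose. Of 18 genes 10 were higher and none lower, with a median of 0.58 and 18 positive values. Hmgcs1, a synthase early in the pathway, was at medians of 102.0 against 54.3 FPKM (0.69 ± 0.21, adjusted p = 0.0289), kept in 10 of 20 fits without 1 library. The sterol demethylase Cyp51 was at 12.8 to 29.2 FPKM (median 21.4) in the vehicle libraries and 18.9 to 53.4 FPKM (median 41.9) in the AOM/DSS libraries (0.82 ± 0.16, adjusted p = 0.00155), and the desaturase Sc5d rose by 0.42 ± 0.08 (adjusted p = 0.00166). Within the sexes alone 1 of the 18 was a DEG in females and 3 in males, with medians of 0.66 and 0.54. The letters TCACNCCAC, a form of the sterol regulatory element, were in 1 of 13 windows of these genes, that of Hmgcs1, and in 1.18% of all windows.

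Genes that mark position along the colon, by which a difference in the stretch of colon sampled could be seen, gave no DEG among 9 tested (median -1.04). Of these, 8 had negative values and 1 a positive one. Whether the groups differed in the stretch sampled was not tested. The distal homeobox gene Hoxb13 was at 10.1 to 142.8 FPKM (median 67.7) in the vehicle libraries and 2.25 to 97.4 FPKM (median 52.3) in the AOM/DSS libraries (-0.54 ± 0.43, adjusted p = 0.432), and Hoxd13 at -1.42 ± 0.97 (adjusted p = 0.344). Female AOM/DSS replicate 5 was the lowest of the 20 libraries for Hoxb13, at 2.25 FPKM, and the highest for Car1, at 8221 FPKM, and without it, or without the 3 libraries that stood apart, 1 gene of this list was lower.

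Sexes were pooled because the question concerned the common response, and the fit within each sex shows what pooling covered. In females 486 genes (3.02%) were DEGs, 412 higher and 74 lower, and in males 1239 (7.71%), 780 higher and 459 lower. A test of the difference itself, the interaction of sex and treatment, called no gene in edgeR at an adjusted p under 0.05. Unadjusted p-values under 0.05 numbered 1430 of 16072, and DESeq2 called 3 genes, Sntg2, Smox and Glt1d1, which were named after that call was seen. Of the 911 genes higher in the pooled fit, 910 were higher in females and 911 in males, with medians of 1.03 and 1.09. All 422 lower genes were lower in both sexes, with medians of -0.55 and -0.74. Those directions follow in part from the pooled call itself, which used the same libraries. Only 294 of the higher and 39 of the lower genes were DEGs within each sex, and 212 and 137 in neither, and these were called only with 10 against 10 libraries. Examples with close values in both sexes were Igtp (3.06 in females and 3.17 in males) and Nlrc5 (4.64 and 4.42), and examples with unlike values, whose difference did not pass the interaction test, were Cck (0.39 and 1.88) and Gsta3 (1.36 and 0.20). Female AOM/DSS replicate 5 weighed on the female count, which was 1235 without it.

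**Figure D5:**
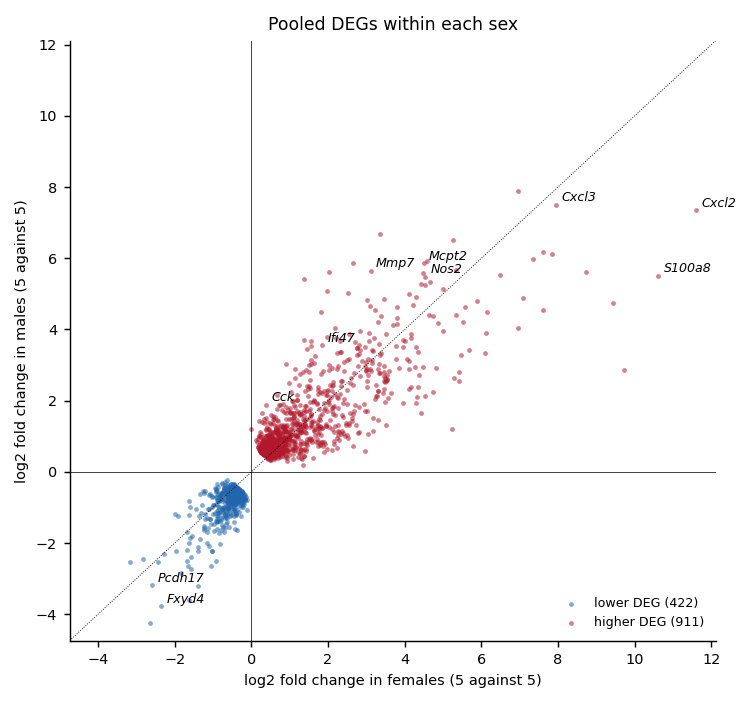
Each point is 1 of the 1333 pooled DEGs, with its log2 fold change in females (5 against 5) on the x axis and in males (5 against 5) on the y axis; the dotted line marks equal values. Higher genes (red) lie at a median of 1.03 in females and 1.09 in males, and lower genes (blue) at -0.55 and -0.74.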

How the data were processed

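RNA from scrapes of the colonic epithelial layer was sequenced as paired-end poly-A selected stranded libraries, 1 per mouse. Per the labels and the study's methods, the authors made the counts per gene with featureCounts from STAR alignments to GRCm38 of reads trimmed by Trim Galore, and deposited these raw counts as 1 table. The authors also deposited StringTie gene abundances as FPKM and TPM per library. FPKM are normalised for length and depth and served for levels and for the minimum of 1, and the deposited TPM were used for no value. The annotation release and the strand setting of the counting are not given in the sources used here, so antisense and overlapping genes are uncertain.

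Of 46078 genes 16072 passed edgeR's filterByExpr. Counts of the 20 libraries (9265804 to 30806392 per library) were normalised by TMM and fitted with edgeR's quasi-likelihood test (edgeR 4.0.16, limma 3.58.1, R 4.3.3), with treatment and sex as terms. DEGs required a Benjamini-Hochberg adjusted p under 0.05, a log2 fold change beyond 0.4 and a mean of at least 1 FPKM in either group. Changes within each sex and their difference came from a model with 4 groups. Standard errors were derived from the test: each is the absolute log2 fold change divided by the square root of the quasi-likelihood F statistic. They are approximate for genes with almost no vehicle counts. Alternatives were DESeq2 1.42.0, its size factors, no filter, no sex term, a replicate block, a stromal score, all 30 libraries and each library left out. Counting intervals (95%, exact) cover counting error only. The fit was tested on simulated data.

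Genes named were the 10 DEGs in each direction with the largest change among those whose groups did not overlap, the first 2 genes of each list as written, up to 3 DEGs per direction and list with the smallest adjusted p, and further members where a list is described. S100b and Defa24, named by that rule, were under the count filter. The comparison, the lists and the genes were chosen with earlier results of these data known. Promoter windows of RefSeq (GRCm38.p6) were searched on both strands, matches of different motifs could overlap, and no test was made. Results on several genes are not reported here.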

Additional observations from a re-analysis of the deposited data

Results flagged for a closer look

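Each gene named in the report was examined in both groups of 10 for a library that lay far from the other 9, with a gap to its nearest neighbour that took a larger share of the group's range than Dixon's 95% critical value. For independent and normally spread values, chance alone gives about 1 such group in 20. Here many values are tied at the floor and genes vary together, so that rate is not a benchmark for the count below. Of 468 groups 78 had one, and most of them belonged to 2 libraries. Values below are normalised log2 CPM, on which a gene without a count lies at -3.63. Their causes were not tested.

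Female AOM/DSS replicate 5 was the low library for inflammatory, interferon and stromal genes among others: Nlrc5 (2.71), Ifit2 (3.76), Irgm2 (5.01), H2-DMb1 (2.82), Igtp (4.39), Ly6a (7.66), Iigp1 (2.18), Cd74 (6.72), Pla2g2a (2.81), Osmr (0.24), Mmp13 (-1.73), Ctla4 (-3.63), Rel (3.50), Tnip3 (4.52), Mmp3 (-3.63), Stat3 (7.05), Cxcl1 (-2.88), Nox1 (3.64), Anxa1 (7.07), Fxyd4 (-3.63), Clu (3.61), Tgfb1 (1.29), Ccnd1 (5.62), Ptges (1.59), Hif1a (5.00), Bmp2 (4.22), Tnfaip3 (5.84), Hoxb13 (3.07), Cdh1 (10.06), Col1a1 (0.79), Cdh5 (-2.02), Col1a2 (2.46) and Ly6g (3.42). The same library was the high one for genes of surface colonocytes, of enteroendocrine cells and of detoxification: Ugt2b34 (9.53), Abcb1a (10.40), Hpgd (8.89), Klk1 (10.63), Ugt1a1 (7.03), Chga (7.68), Chgb (8.19), Car1 (13.95) and Cdkn1a (8.72). Its place near the vehicle libraries is thus seen in single genes of several lists.

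Male vehicle replicate 1 was the high vehicle library for muscle and stromal genes and for some inflammatory ones: Spp1 (-2.23), Adck3 (6.28), Mmp10 (0.26), S100a8 (-0.72), Il6 (-3.14), S100a9 (0.99), Cpa3 (-2.03), Lpar1 (5.90), Ptger3 (4.75), Slpi (4.12), Nkd1 (2.89), Timp2 (6.63), Scnn1b (5.79), Ptgs1 (4.17), Myh11 (10.47) and Acta2 (10.10). Of these flags, that of Il6 rested on 1 count and that of Spp1 on 4 counts. The same library was the low one for H2-Q7 (1.53), B2m (7.32), Casp8 (6.09), Ugt2b35 (4.40), Lgr5 (2.76), Nr5a2 (5.31), Klk1 (9.15), Sult1a1 (7.27), Ccnd1 (5.09), Trpm5 (-1.18) and Ndufb5 (6.15).

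The other libraries were set apart in 1 or 2 genes each. Female vehicle replicate 1 was high for Cd14 (5.72) and low for Top2a (5.59). Low values were those of Ciita in female vehicle replicate 3 (-0.80), Ctss in female vehicle replicate 4 (7.89), Fosb in male vehicle replicate 5 (0.04), Cldn4 in female AOM/DSS replicate 1 (5.82) and Duox2 in male AOM/DSS replicate 5 (8.95). High values were those of Ifng in female vehicle replicate 5 (-2.40), the shallowest library, and Plac8 in male AOM/DSS replicate 2 (10.47).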

How the results depend on the processing

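The count of 911 higher genes stayed within 1.5 times under every setting tried: 979 with DESeq2, 893 with its size factors, 885 without a filter on low counts, 878 with all 30 libraries, 857 without a sex term, 1129 with the stromal score as a covariate, 1302 without the FPKM minimum, 1281 without the fold threshold, 1008 without the 3 libraries that stood apart (a choice made after seeing the data) and 794 to 1030 without 1 library. The 422 lower genes became 682 without those 3 libraries, 798 without the fold threshold and 335 to 659 without 1 library. The female count of 486 became 778 with DESeq2, 1379 without the 3 libraries and 221 to 1235 without 1 library: 306, 315 and 286 without female vehicle replicates 2, 3 and 5, and 279, 221 and 1235 without female AOM/DSS replicates 1, 4 and 5. The male count of 1239 ran from 804 (without male AOM/DSS replicate 3) to 1485. The interaction called 3 genes with DESeq2 and 0 to 1 without 1 library. Causes of these shifts were not tested.

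Replicate numbers of the labels did not pair the libraries (8 of 30 same-numbered pairs correlated above 0.1, median 0.02, and 5 of 20 libraries correlated best with their own number), so the replicate block says nothing about shared litters or days. With the block 949 genes were higher and 393 lower, and Myh11 (0.041), Acta2 (0.453) and Muc2 (0.098) changed sign, all of which had missed the threshold.

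Other signs that turned were likewise those of genes that had not passed the test. Without a sex term Col1a2 (-0.087), Mmp2 (-0.086) and Pecam1 (-0.053) turned. With the stromal score as a covariate it was Dclk1 (0.068), Trpm5 (0.153), Ndufb5 (0.006), Muc2 (0.315) and Pecam1 (-0.090). Without the 3 libraries it was Myh11 (0.411), Acta2 (0.766) and Tjp1 (0.049). Without 1 library, Myh11 ran from -2.405 to 0.587, Acta2 from -1.632 to 0.913, Ptgs1 from -0.273 to 0.009 and Tjp1 from -0.119 to 0.027, each highest without male vehicle replicate 1, while Muc2 ran from -0.229 to 0.106 (without male vehicle replicate 4) and Pecam1 from -0.057 (without female vehicle replicate 2) to 0.245. The shallowest library limits what can be said of genes with few counts, such as the interleukins and chemokines near 0 in vehicle colon.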
